A study of Mus musculus with 4 samples.

Results

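Gene expression in brown preadipocytes that lack both MLL3 and MLL4 was compared between day 0 and day 2 of adipogenesis. The members were all gene symbols of the RefSeq transcript table, each represented by its transcript with most reads over the 4 RNA-Seq libraries, and a symbol counted as expressed with an RPKM (reads scaled by exon length and library size) above 1 at day 0 or day 2. Of 22459 symbols, 11406 were expressed in these cells, 10252 of them at both days, 610 at day 0 alone and 544 at day 2 alone. The study grew SV40T-immortalized brown preadipocytes from E18.5 embryos of the C57BL/6J background, with a germline loss of MLL3 (MLL3-/-) and floxed alleles of MLL4, and treated them with adenovirus carrying Cre (Ad-Cre, MLL3-/-;MLL4-/-) or GFP (Ad-GFP, MLL3-/-). The labels call the Ad-GFP cells WT, but all 4 libraries lack MLL3, so the contrast between Ad-Cre and Ad-GFP cells is the loss of MLL4 in cells without MLL3. Day 0 was 2 days after confluence, and day 2 followed 2 days with insulin, T3, indomethacin, dexamethasone and IBMX. The cells are 1 immortalized line, and each combination of virus and day has 1 library, so no value below has a replicate error and none was tested.

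MLL3 and MLL4, encoded by Kmt2c and Kmt2d, are histone methyltransferases that place mono- and di-methylation on H3K4 at enhancers, the distal elements through which lineage-determining transcription factors act. In adipogenesis, the hormone cocktail induces C/EBPβ and C/EBPδ, which bind with the glucocorticoid receptor ahead of PPARγ and C/EBPα, and these then drive the genes of lipid uptake, synthesis and storage. Each hormone of the cocktail also has target genes of its own: dexamethasone acts through the glucocorticoid receptor, IBMX through cAMP, T3 through thyroid hormone receptors and insulin through its own and the IGF receptors.

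The study verified the deletion in these cells with an RNA-Seq view of the targeted exons, qRT-PCR of Mll4 and disruption of the MLL4 complex. The transcript counts used here cannot check it, since Cre removes a few exons of a long transcript. Kmt2d had 16.3 RPKM at day 0 and 15.6 RPKM at day 2 (6316 and 5595 reads) in Ad-Cre cells, and Kmt2c, disrupted in all 4 libraries, had 1.41 RPKM at day 0 and 1.49 RPKM at day 2 (463 and 451 reads). Both libraries were therefore taken as labelled. The cell type labels could be set against markers. Of the mesenchymal preadipocyte markers all 8 were expressed, among them Vim, encoding the intermediate filament vimentin, at 1181 RPKM at day 0 and 446 RPKM at day 2 (42256 and 14739 reads). Of the 7 adipocyte markers 5 were expressed, and all 5 were more than 2.5-fold higher at day 2. None of 7 endothelial and 5 epithelial markers was expressed, and 1 of 8 macrophage markers was, the monocyte receptor gene Cd14, with 74 and 29 reads at day 0 and day 2. Of the skeletal muscle markers 2 of 9 were expressed: Acta1, the skeletal muscle actin gene, with 1356 and 88 reads, and Tnnt3, a troponin T gene, with 0 and 21 reads. Of 6 Schwann and neural markers 1 was, the tubulin gene Tubb3, with 117 and 42 reads.

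A property of the day 2 library of Ad-Cre cells touches every ratio below. Mapped reads were 19511448 at day 0 and 18031815 at day 2, and the counts of all RefSeq transcripts, in which a read can enter several isoforms, summed to 99.4% of the mapped reads at day 0 but to 87.8% at day 2. In the Ad-GFP libraries the sums came to 99.0% and 96.1%. The ratio of day 2 to day 0 also declined with transcript length. Among 20 bins of exon length, each with about the same number of expressed symbols, the median log2 ratio went from 0.92 at a median length of 470 bases to -0.70 at 8739 bases, a difference of 1.62. The corresponding difference in Ad-GFP cells was 0.0071. Across 11357 symbols, which are not independent replicates, the log2 ratio and the log2 exon length had a Pearson's r of -0.309, against -0.0022 across 11475 symbols in Ad-GFP cells. The cause was not tested. Beside the ratios, length-adjusted ratios are therefore given, in which the median of transcripts of similar length was divided out. Transcripts shorter than 470 or longer than 8739 bases were adjusted by the first or last bin, whatever their length.

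**Figure D1:**
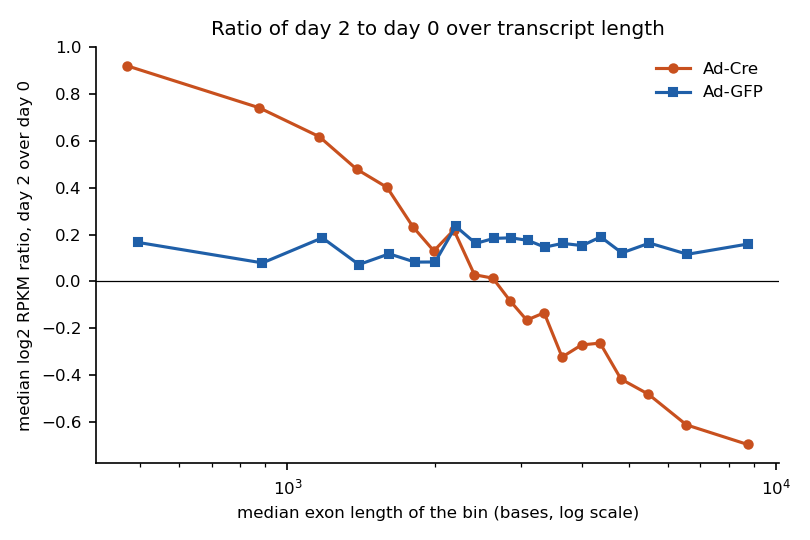
Median log2 ratio of RPKM at day 2 to day 0 (vertical axis) in 20 bins of exon length (horizontal axis, bases, log scale) for Ad-Cre and Ad-GFP cells; each point is a bin of expressed symbols. The Ad-Cre medians descend from 0.92 to -0.70, while the Ad-GFP medians stay between 0.072 and 0.235.

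Without MLL4, 17 of 21 expressed glucocorticoid-induced genes and 12 of 20 lipid droplet and triglyceride genes were more than 2.5-fold higher at day 2, while 14 of 18 smooth muscle contractile and 19 of 27 interferon-stimulated genes were more than 2.5-fold lower. The same lists moved the same way in Ad-GFP cells, with 15 and 17 members past 2.5-fold higher and 14 and 23 past 2.5-fold lower. In all, 1042 of the 11406 expressed symbols (9.14%) were up-regulated in Ad-Cre cells, that is, more than 2.5-fold higher in RPKM at day 2, and 1166 (10.2%) were down-regulated, more than 2.5-fold lower. The list counts below are to be read beside these shares of 9.14% and 10.2%. The median log2 ratio of all expressed symbols was -0.0050. Scaling by the sum of counts in place of mapped reads gave a median of 0.17 and a split of 1379 up-regulated against 926 down-regulated symbols. Of the up-regulated symbols, 391 (37.5%) were at or under 1 RPKM at day 0, 22 had no read there, and 182 were over 8-fold higher. Of the down-regulated symbols, 426 (36.5%) were at or under 1 RPKM at day 2, 27 had no read there, and 217 were over 8-fold lower. The cutoff separated close neighbours: Eid2b at 1.322 was counted and Rpl18 at 1.321 was not, and at the other end Zfp51 at -1.324 was counted and Nhlrc2 at -1.321 was not.

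Counting error alone gave each ratio an exact binomial 95% interval, called the interval below, which does not cover differences between cultures. In 607 up-regulated and 783 down-regulated symbols the whole interval lay past the cutoff. The up-regulated transcripts were short, with a median exon length of 1628 bases, against 2733 bases for all expressed symbols, and the down-regulated ones long, with 3588 bases. Non-coding transcripts made up 145 of the up-regulated and 82 of the down-regulated symbols. With length-adjusted ratios 802 symbols (7.03%) were up-regulated and 1069 (9.37%) down-regulated. Of the 1042 symbols, 655 (62.9%) stayed past the cutoff, and of the 1166, 877 (75.2%).

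**Figure D2:**
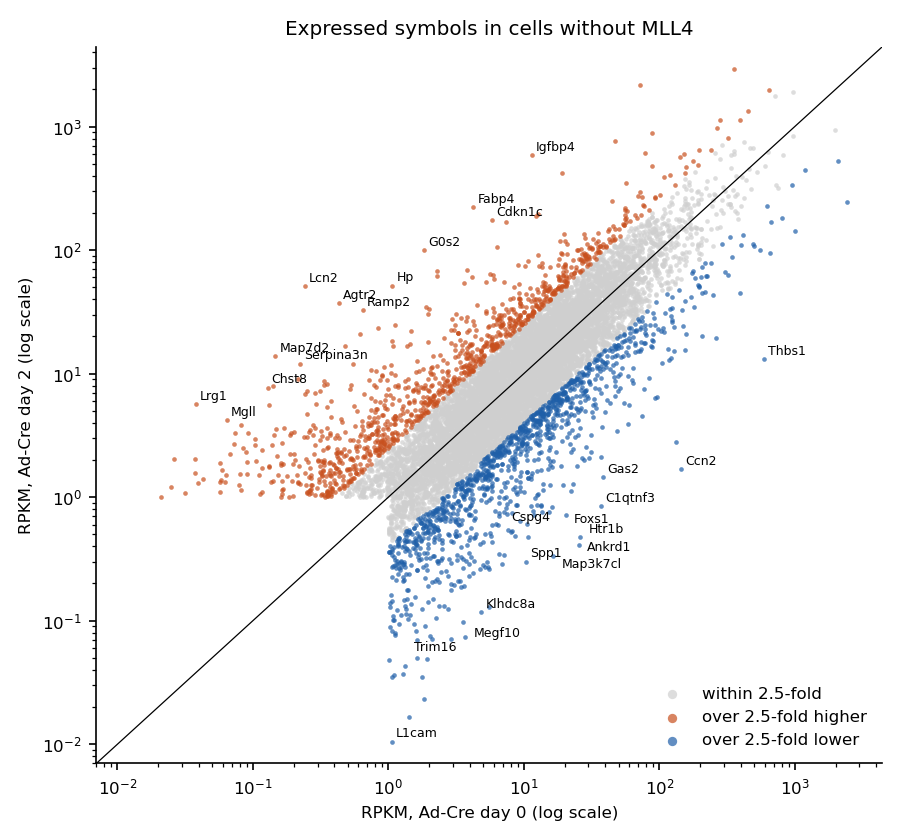
RPKM in Ad-Cre cells at day 0 (horizontal axis, log scale) and day 2 (vertical axis, log scale) for each expressed symbol, with the line of equal RPKM and most genes of the highest and lowest ratios named; symbols without a read on one day are not drawn. Up-regulated symbols (orange) lie above the line and down-regulated symbols (blue) below it.

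Of 25 expressed transcription factors of adipogenesis, 10 were up-regulated and 1 was down-regulated, with a median log2 ratio of 1.15, against -0.0050 for all expressed symbols and 9.14% and 10.2% called. The early factors were at high levels at day 2. Cebpb, encoding C/EBPβ (chr2:167514415-167515918), had 47.2 RPKM at day 0 and 759.9 RPKM at day 2 (1385 and 20609 reads), 16.1-fold higher, with a log2 ratio of 4.01 (interval 3.93 to 4.09). Cebpd, encoding C/EBPδ, had 12.4 RPKM at day 0 and 189 RPKM at day 2 (545 and 7699 reads), a log2 ratio of 3.93 (interval 3.81 to 4.06). In Ad-GFP cells Cebpb was at 88.6 and 368 RPKM and Cebpd at 19.7 and 57.7 RPKM at day 0 and day 2, so that both day 2 levels were higher in the cells without MLL4. Nfib, a nuclear factor that acts with C/EBPs, had 13.03 RPKM at day 0 and 73.9 RPKM at day 2 (2230 and 11689 reads), against 13.8 and 15.6 RPKM in Ad-GFP cells. The later factors were also up-regulated, from a lower level. Pparg, encoding the master regulator PPARγ, had 0.994 RPKM at day 0 and 7.53 RPKM at day 2 (36 and 252 reads), a log2 ratio of 2.92 (interval 2.41 to 3.47). Its partner Cebpa had 7.40 RPKM at day 0 and 169 RPKM at day 2 (381 and 8062 reads), a log2 ratio of 4.52 (interval 4.37 to 4.67). The ratio of Pparg in Ad-GFP cells was 3.55 and that of Cebpa 5.20, both larger. Cebpa was at 18.0 and 661 RPKM in Ad-GFP cells at day 0 and day 2, so that its level was lower without MLL4 at both days. Klf15, a Krüppel-like factor induced by glucocorticoids in fat, had 0.715 RPKM at day 0 and 8.80 RPKM at day 2 (32 and 364 reads). In Ad-GFP cells Klf15 was at 0.406 and 32.7 RPKM. The down-regulated member was Egr2, a zinc finger factor that acts early in adipogenesis, with 1.92 RPKM at day 0 and 0.636 RPKM at day 2 (111 and 34 reads).

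Of 20 expressed lipid droplet and triglyceride enzyme genes, 12 were up-regulated and none was down-regulated, with a median log2 ratio of 2.02 and a length-adjusted median of 2.17. The same genes had a median of 3.91 in Ad-GFP cells, where 17 were up-regulated. In such cultures fewer cells that accumulate lipid and less RNA in each cell cannot be told apart. G0s2, an inhibitor of the triglyceride lipase ATGL, had 1.82 RPKM at day 0 and 100.1 RPKM at day 2 (30 and 1522 reads), a log2 ratio of 5.78 (interval 5.26 to 6.35). Plin1, which coats the lipid droplet, had 0.481 RPKM at day 0 and 16.8 RPKM at day 2 (18 and 579 reads). Cidec, which enlarges the droplet, had 0.843 RPKM at day 0 and 23.4 RPKM at day 2 (28 and 717 reads). Each of these began with at most 30 reads at day 0, and each was several fold lower at day 2 than in Ad-GFP cells, which reached 4116 reads of Cidec, 2367 of Plin1 and 6561 of G0s2. The lipases were higher too. Lipe, hormone-sensitive lipase, had 4.15 RPKM at day 0 and 59.99 RPKM at day 2 (261 and 3484 reads), Pnpla2, ATGL, had 9.17 RPKM at day 0 and 53.5 RPKM at day 2 (486 and 2620 reads), and Mgll, monoglyceride lipase, had 0.0642 RPKM at day 0 and 4.22 RPKM at day 2 (5 and 304 reads).

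Of 14 expressed genes of fatty acid and glycerol uptake and binding, 6 were up-regulated and 3 down-regulated, with a median of 0.81. Lpl, the lipase that frees fatty acids from lipoproteins, had 2.30 RPKM at day 0 and 68.3 RPKM at day 2 (182 and 4988 reads), a log2 ratio of 4.89 (interval 4.68 to 5.11) against 6.28 in Ad-GFP cells. Acsl1, which activates fatty acids for triglyceride synthesis, had 6.07 RPKM at day 0 and 57.8 RPKM at day 2 (461 and 4057 reads), against 5.17 and 354 RPKM in Ad-GFP cells. Fabp4, the fatty acid carrier of fat cells, had 4.24 RPKM at day 0 and 223 RPKM at day 2 (53 and 2575 reads), and its transcript is short, so that the log2 ratio of 5.72 became 4.88 when length-adjusted. Angptl4, a secreted inhibitor of Lpl, had 0.242 RPKM at day 0 and 6.88 RPKM at day 2 (9 and 236 reads). These 4 were up-regulated in both cell populations, with a smaller ratio without MLL4. The down-regulated members were Acsl4, an acyl-CoA synthetase of arachidonic acid, with 8.96 RPKM at day 0 and 1.93 RPKM at day 2 (923 and 184 reads), its relative Acsl5, with 12.96 RPKM at day 0 and 3.96 RPKM at day 2 (797 and 225 reads), and Fabp3, the carrier of heart muscle, with 1.52 RPKM at day 0 and 0.433 RPKM at day 2 (19 and 5 reads).

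Among secreted factors of fat cells, 5 of 13 expressed genes were up-regulated and 1 was down-regulated. Adipoq, encoding adiponectin, had 0.291 RPKM at day 0 and 5.67 RPKM at day 2 (7 and 126 reads), against 0.142 and 27.5 RPKM in Ad-GFP cells. Agt, encoding angiotensinogen, had 1.48 RPKM at day 0 and 22.2 RPKM at day 2 (53 and 737 reads), against 1.07 and 199.6 RPKM. Apoe, the lipoprotein component apolipoprotein E, had 2.01 RPKM at day 0 and 33.6 RPKM at day 2 (49 and 758 reads), and its ratio of 4.07 was close to the 3.40 in Ad-GFP cells. Lcn2, a siderophore-binding lipocalin, had 0.240 RPKM at day 0 and 51.4 RPKM at day 2 (4 and 790 reads), a log2 ratio of 7.74 (interval 6.38 to 9.62) that exceeded the 6.36 in Ad-GFP cells. The down-regulated member was Adm, encoding the vasodilator adrenomedullin, with 32.3 RPKM at day 0 and 4.46 RPKM at day 2 (871 and 111 reads). Vegfa, the vascular growth factor, was the secreted factor with most reads, at 27.2 RPKM at day 0 and 52.9 RPKM at day 2 (1875 and 3365 reads), within the cutoff.

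Of 19 genes on the list of brown identity and heat production, 3 were expressed and none passed the cutoff. Of 5 brown lineage markers, which partly overlap this list, 3 were expressed, Ebf2, Zic1 and En1, all within the cutoff. Their summed RPKM was 23.4 at day 0 and 42.4 at day 2. The median log2 ratio of these markers was 0.89, against -1.39 in Ad-GFP cells. Ebf2, a factor that selects the brown lineage, had 4.77 RPKM at day 0 and 11.1 RPKM at day 2 (404 and 866 reads), and its log2 ratio of 1.21 became 1.47, past the cutoff of 1.32, when length-adjusted. Zic1, a marker of brown precursors, had 2.34 RPKM at day 0 and 1.11 RPKM at day 2 (153 and 67 reads), and Slc29a1, a nucleoside transporter on the list, had 75.6 RPKM at day 0 and 79.6 RPKM at day 2 (3000 and 2918 reads). Ucp1, the uncoupling protein, had 1 and 1 reads at day 0 and day 2, and Cidea, a droplet protein of brown fat, had no read at either day. A count of 0 allows up to 3 reads, which on 1 kb of exon is 0.154 RPKM at day 0 and 0.166 RPKM at day 2.

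**Figure D3:**
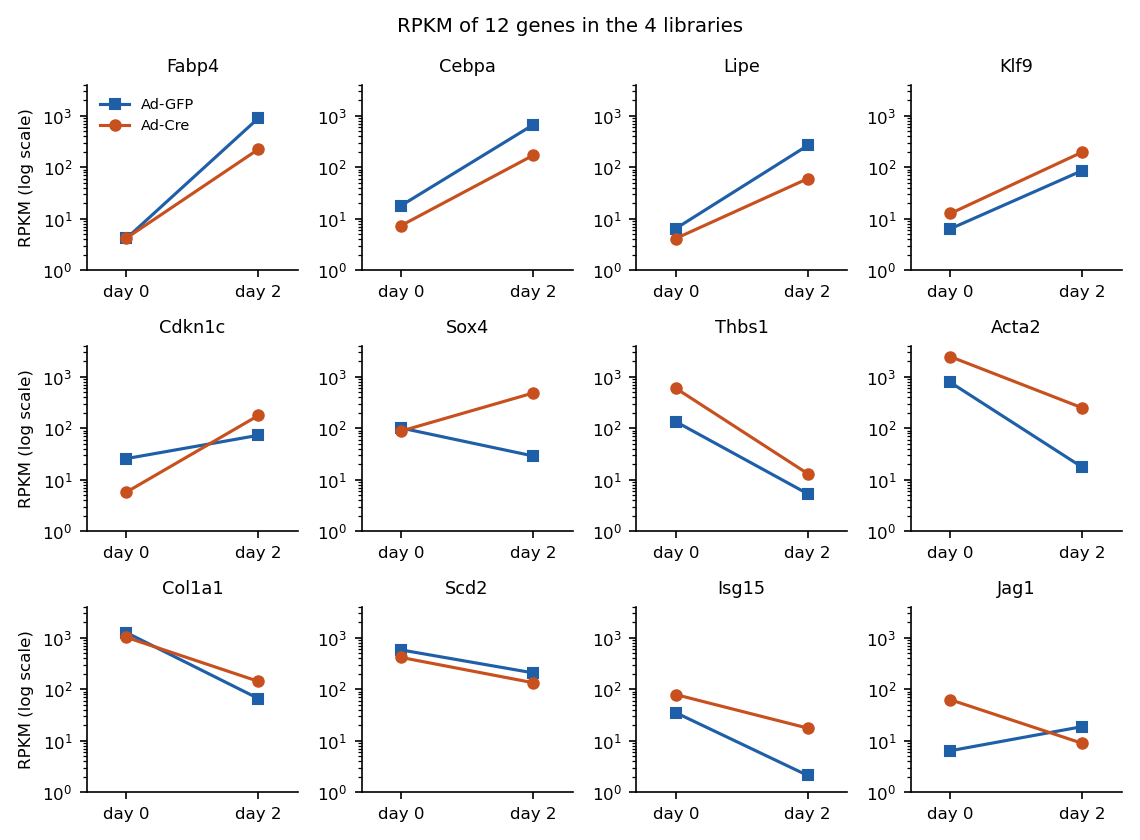
RPKM (log scale) of 12 genes in the 4 libraries, with day 0 and day 2 joined by a line for Ad-Cre and for Ad-GFP cells; each point is 1 library. Cebpa, Lipe and Klf9 ascend in both cell populations, Acta2, Thbs1 and Col1a1 descend in both, and the Sox4 and Jag1 lines run in opposite directions.

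The glucocorticoid-induced genes were the list with the highest share of up-regulated members among lists with at least 10 expressed genes. Of 21 expressed members 17 were up-regulated and 1 was down-regulated, with a median log2 ratio of 2.76, against 2.32 in Ad-GFP cells, where 15 were up-regulated. Klf9, a transcription factor gene that responds to glucocorticoids and to thyroid hormone, had 12.7 RPKM at day 0 and 197 RPKM at day 2 (808 and 11575 reads), a log2 ratio of 3.95 (interval 3.85 to 4.06). Cdkn1c, encoding the CDK inhibitor p57, had 5.78 RPKM at day 0 and 176 RPKM at day 2 (219 and 6171 reads), a log2 ratio of 4.93 (interval 4.74 to 5.13) against 1.50 in Ad-GFP cells. The metallothionein gene Mt1, whose product binds zinc and copper, had 88.8 RPKM at day 0 and 888 RPKM at day 2 (939 and 8675 reads), against 101 and 209 RPKM in Ad-GFP cells. These 3 ended at a higher level without MLL4 than with it. Fam107a, an actin-associated gene, had 0.130 RPKM at day 0 and 5.54 RPKM at day 2 (8 and 314 reads) and ended lower than the 0.0925 and 18.1 RPKM of Ad-GFP cells.

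Genes that respond to cAMP, which IBMX raises by blocking phosphodiesterases, gave 6 up-regulated and 1 down-regulated of 15 expressed, with a median of 0.64. These were 40% and 6.67%, beside 9.14% and 10.2% of all expressed symbols. Pde3b, a phosphodiesterase of fat cells, had 3.81 RPKM at day 0 and 21.8 RPKM at day 2 (393 and 2077 reads). Sik1, a salt-inducible kinase, had 2.55 RPKM at day 0 and 12.9 RPKM at day 2 (224 and 1047 reads), a ratio of 2.34 against 0.76 in Ad-GFP cells. Per1, a clock gene that also responds to glucocorticoids, had 11.1 RPKM at day 0 and 49.6 RPKM at day 2 (1005 and 4167 reads), and Rgs2, a regulator of G protein signalling, had 0.818 RPKM at day 0 and 5.20 RPKM at day 2 (48 and 282 reads). The down-regulated member was Pde3a, the relative of Pde3b, with 1.304 RPKM at day 0 and 0.448 RPKM at day 2 (107 and 34 reads), whose log2 ratio of -1.54 became -1.28, within the cutoff, when length-adjusted. Of 5 expressed thyroid hormone-responsive genes 3 were up-regulated. Klf9 was among them, as were Thrsp, a lipogenic gene of fat and liver, with 0.198 RPKM at day 0 and 1.87 RPKM at day 2 (4 and 35 reads), and Thra, encoding the thyroid hormone receptor α, with 19.1 RPKM at day 0 and 51.3 RPKM at day 2 (836 and 2079 reads) and the same direction in Ad-GFP cells, at a ratio of 1.40. The ratio of Thra, 1.43, became 1.25 when length-adjusted, which leaves 2 of the 5 up-regulated. Me1, malic enzyme, had 18.5 RPKM at day 0 and 10.6 RPKM at day 2 (1177 and 620 reads), within the cutoff.

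In the IGF system and insulin signalling 8 of 21 expressed genes were up-regulated and 1 was down-regulated, with a median of 0.69. Igfbp4, which binds and restrains IGFs, had 11.5 RPKM at day 0 and 589 RPKM at day 2 (463 and 21931 reads), the most reads of the list at day 2, and its log2 ratio of 5.68 (interval 5.55 to 5.82) was like the 5.55 of Ad-GFP cells. Igfbp2, another IGF-binding protein, had 1.89 RPKM at day 0 and 34.3 RPKM at day 2 (49 and 821 reads), with 1.62 and 167 RPKM in Ad-GFP cells. Igf2, the growth factor itself, had 20.8 RPKM at day 0 and 113 RPKM at day 2 (1636 and 8207 reads), a ratio of 2.44 against 1.08. Slc2a4, the insulin-regulated glucose transporter GLUT4, had 0.799 RPKM at day 0 and 4.85 RPKM at day 2 (44 and 247 reads), against 0.598 and 23.5 RPKM in Ad-GFP cells, so that the day 2 level was lower without MLL4. The down-regulated member was Irs1, an insulin receptor substrate, with 14.96 RPKM at day 0 and 4.68 RPKM at day 2 (2675 and 774 reads), whose log2 ratio of -1.68 became -0.98, within the cutoff, when length-adjusted.

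Sterol synthesis genes were lower together. Of 28 expressed genes of sterol and fatty acid synthesis none was up-regulated and 13 were down-regulated, with a median log2 ratio of -1.302. Length-adjusted, 13 were down-regulated at a median of -1.17. The Ad-GFP median was -1.37, with 15 down-regulated. Sc5d, a late enzyme of the pathway, had 33.8 RPKM at day 0 and 5.25 RPKM at day 2 (1485 and 213 reads), a log2 ratio of -2.69 (interval -2.90 to -2.48), and Idi1, which makes an isoprenoid building block, had 1.81 RPKM at day 0 and 0.271 RPKM at day 2 (101 and 14 reads). Both were also lower in Ad-GFP cells, with ratios of -1.70 and -1.44. Scd2, a fatty acid desaturase with the most reads of the list, had 412 RPKM at day 0 and 133 RPKM at day 2 (43844 and 13119 reads) and a log2 ratio of -1.63 that became -1.15, within the cutoff, when length-adjusted, and Fasn, fatty acid synthase, had 132 RPKM at day 0 and 75.9 RPKM at day 2 (25564 and 13603 reads), a log2 ratio of -0.80 that was -0.10 when length-adjusted, since its transcript of 9938 bases is long.

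The summed RPKM of the collagen and matrix protein list went from 9411 at day 0 to 3600.3 at day 2, the largest drop of any list. Of 33 expressed members 16 were down-regulated and 1 was up-regulated, with a median of -1.25 and -1.19 in Ad-GFP cells. Col1a1, the main chain of type I collagen, had 1009.6 RPKM at day 0 and 142 RPKM at day 2 (92543 and 11996 reads), a log2 ratio of -2.83 (interval -2.86 to -2.81). Bgn, the proteoglycan biglycan, had 2093 RPKM at day 0 and 522 RPKM at day 2 (97566 and 22498 reads). Thbs1, thrombospondin 1 (chr2:117937612-117952869), had 595 RPKM at day 0 and 13.1 RPKM at day 2 (67311 and 1374 reads), 45.3-fold lower, with a log2 ratio of -5.50 (interval -5.58 to -5.42). Its relative Thbs2 had 74.7 RPKM at day 0 and 4.54 RPKM at day 2 (8632 and 485 reads). The up-regulated member was Dcn, the proteoglycan decorin, with 0.299 RPKM at day 0 and 1.18 RPKM at day 2 (11 and 40 reads). In Ad-GFP cells the ratios of the other 4 genes named here were -4.24, -2.63, -4.64 and -3.88, all in the same direction.

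Of 19 expressed matrix proteases and inhibitors 8 were down-regulated and 2 were up-regulated, with a median of -1.14. The 10.5% up-regulated were near the 9.14% of all expressed symbols, and the 42.1% down-regulated stood beside 10.2%. The Ad-GFP median was -2.62, with 14 down-regulated and 3 up-regulated. The aggrecanase gene Adamts5 had 128 RPKM at day 0 and 15.3 RPKM at day 2 (20167 and 2233 reads), and Adamts1, a related protease, had 248 RPKM at day 0 and 43.1 RPKM at day 2 (23636 and 3793 reads). Plaur, the urokinase receptor, had 16.3 RPKM at day 0 and 0.834 RPKM at day 2 (443 and 21 reads). Adamts15, another aggrecanase of the family, went the other way, with 0.190 RPKM at day 0 and 3.29 RPKM at day 2 (22 and 352 reads). The other up-regulated member, Timp4, an inhibitor of metalloproteinases, had no read at day 0 and 93 reads at day 2, at least 33.5-fold higher when 3 reads are set for the day 0 library.

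Contractile genes were the list with the highest share of down-regulated members. Of 18 expressed genes of the smooth muscle apparatus and the factor SRF, 14 were down-regulated, with a median of -2.21 and a length-adjusted median of -1.94. The Ad-GFP median was -2.72, also with 14 down-regulated. Acta2, smooth muscle α-actin (chr19:34315580-34329826), had 2428 RPKM at day 0 and 247 RPKM at day 2 (84322 and 7928 reads), 9.83-fold lower, with a log2 ratio of -3.30 (interval -3.33 to -3.26). Actg2, the γ-actin of enteric smooth muscle, had 264 RPKM at day 0 and 19.5 RPKM at day 2 (6778 and 462 reads), Cnn1, calponin, had 105 RPKM at day 0 and 12.2 RPKM at day 2 (4055 and 438 reads), and Myh11, smooth muscle myosin, had 10.7 RPKM at day 0 and 1.44 RPKM at day 2 (1387 and 172 reads). Flna, the actin cross-linker filamin A, had 499.8 RPKM at day 0 and 108 RPKM at day 2 (81398 and 16229 reads). At day 0 the Ad-Cre cells had more of these transcripts than the Ad-GFP cells, which had Acta2 at 770.1 and 17.5 RPKM, Cnn1 at 28.8 and 0.766 RPKM and Myh11 at 0.622 and 0.256 RPKM at day 0 and day 2. At day 2 Acta2, Cnn1, Myh11, Actg2 and Flna were still higher in the cells without MLL4. Among the 9 skeletal muscle markers, Acta1 moved with the contractile genes, with 1356 and 88 reads at day 0 and day 2, while Tnnt3 moved the other way and Myod1, Myog and Pax7, which define that lineage, had no read at either day. The up-regulated member was Des, encoding desmin, an intermediate filament of muscle, with 0 and 49 reads at day 0 and day 2. Des is at least 17.7-fold higher against a floor of 3 reads, and it was named after its values were seen.

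The list of TEAD factors, their co-activators YAP and TAZ and their target genes had 15 expressed members. The targets respond to cell density and tension. Of the 15 members, factors included, 8 were down-regulated and none up-regulated, with a median of -1.61 (-0.94 length-adjusted). Ccn2, a matricellular growth factor gene long used as a YAP target (chr10:24315248-24318489), had 145 RPKM at day 0 and 1.69 RPKM at day 2 (6782 and 73 reads), 85.9-fold lower, with a log2 ratio of -6.42 (interval -6.78 to -6.09). Ankrd1, a cardiac ankyrin repeat gene, had 25.5 RPKM at day 0 and 0.408 RPKM at day 2 (879 and 13 reads). Ccn1, the relative of Ccn2, had 207 RPKM at day 0 and 20.04 RPKM at day 2 (8191 and 733 reads), and Axl, a receptor tyrosine kinase gene, had 86.7 RPKM at day 0 and 16.7 RPKM at day 2 (8600 and 1530 reads). Lats2, a kinase that restrains YAP, had 33.5 RPKM at day 0 and 5.69 RPKM at day 2 (3388 and 533 reads). Ccn2 and Ankrd1 were down-regulated in Ad-GFP cells as well, to -5.68 and -5.13 on the log2 scale.

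In the TGF-β and BMP pathway 10 of 25 expressed genes were down-regulated and 3 up-regulated, with a median of -1.06. The 12% up-regulated were near the 9.14% of all expressed symbols, and the 40% down-regulated stood beside 10.2%. Among the ligands, Bmp4 had 11.6 RPKM at day 0 and 0.779 RPKM at day 2 (451 and 28 reads). Among the regulators, Ltbp2, which binds latent TGF-β complexes or fibrillin, had 149 RPKM at day 0 and 24.5 RPKM at day 2 (19237 and 2917 reads), and Skil, a repressor of SMAD proteins, had 8.78 RPKM at day 0 and 0.859 RPKM at day 2 (1151 and 104 reads). The ratio of Skil was -3.35, against -1.10 in Ad-GFP cells. The up-regulated members were the co-receptor Tgfbr3, with 2.90 RPKM at day 0 and 17.6 RPKM at day 2 (343 and 1922 reads), the differentiation inhibitor Id4, with 5.28 RPKM at day 0 and 31.9 RPKM at day 2 (171 and 956 reads), and the activin antagonist Fst, with 13.2 RPKM at day 0 and 38.9 RPKM at day 2 (602 and 1639 reads). Bmp1, the procollagen protease, was within the cutoff, with 61.5 RPKM at day 0 and 73.01 RPKM at day 2 (5346 and 5864 reads).

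The Wnt pathway was split, with 7 up-regulated and 4 down-regulated genes of 16 expressed and a median of -0.08 that turned to 0.17 when length-adjusted. These were 43.8% and 25%, beside 9.14% and 10.2% of all expressed symbols. Among the ligands, Wnt6 had 0.0743 RPKM at day 0 and 3.30 RPKM at day 2 (3 and 123 reads), Wnt4 had 0.188 RPKM at day 0 and 2.22 RPKM at day 2 (14 and 153 reads) and Wnt11 had 0.276 RPKM at day 0 and 3.20 RPKM at day 2 (15 and 161 reads). All of these 3 ligands had fewer than 20 reads at day 0. In Ad-GFP cells Wnt6 was at 0.0562 and 0.126 RPKM, Wnt4 at 0.183 and 0.671 RPKM and Wnt11 at 0.167 and 0.421 RPKM. Ccn5, a matricellular gene induced by Wnt, had 58.9 RPKM at day 0 and 3.94 RPKM at day 2 (2041 and 126 reads), and Ccn4, its relative, had 128 RPKM at day 0 and 23.8 RPKM at day 2 (12519 and 2152 reads). The other down-regulated members were the ligand Wnt5a, with 40.9 RPKM at day 0 and 6.16 RPKM at day 2 (3414 and 475 reads), and Dkk3, with 2.37 RPKM at day 0 and 0.496 RPKM at day 2 (155 and 30 reads). Ctnnb1, encoding β-catenin, had 151 RPKM at day 0 and 84.4 RPKM at day 2 (10646 and 5516 reads), within the cutoff.

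Of 26 expressed regulators of preadipocytes and mesenchymal cells 3 were up-regulated and 7 down-regulated. These shares of 11.5% and 26.9% stood beside 9.14% and 10.2% of all expressed symbols. The list median was -0.25, against -1.53 in Ad-GFP cells, where 0 were up-regulated and 16 down-regulated. Runx1, a Runt factor of blood and mesenchyme, had 11.3 RPKM at day 0 and 0.849 RPKM at day 2 (1568 and 109 reads), Fli1, an ETS factor, had 5.01 RPKM at day 0 and 0.431 RPKM at day 2 (302 and 24 reads), and Gli1, an effector of hedgehog signalling, had 5.18 RPKM at day 0 and 0.500 RPKM at day 2 (370 and 33 reads). These 3 were lower in Ad-GFP cells too. Sox4, an HMG-box factor of progenitors, had 87.9 RPKM at day 0 and 480.0 RPKM at day 2 (5066 and 25557 reads), and Cd34, a surface marker of progenitors, had 0.352 RPKM at day 0 and 2.98 RPKM at day 2 (18 and 141 reads). Both went the other way in Ad-GFP cells, to which the last comparison returns. Sox9, another HMG-box factor, was the third up-regulated member, with 2.497 RPKM at day 0 and 10.5 RPKM at day 2 (202 and 782 reads). The receptor Pdgfrb, with the most reads after Sox4, had 123 RPKM at day 0 and 41.9 RPKM at day 2 (13013 and 4088 reads), and its log2 ratio of -1.56 became -1.08, within the cutoff, when length-adjusted.

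Of 17 expressed PDGF and FGF ligands, receptors and feedback genes 3 were up-regulated and 6 down-regulated, or 3 and 4 when length-adjusted. Without the adjustment these were 17.6% and 35.3%, beside 9.14% and 10.2% of all expressed symbols. The up-regulated members were the receptors Fgfr1, with 26.5 RPKM at day 0 and 83.8 RPKM at day 2 (2592 and 7571 reads), and Fgfr2, with 1.67 RPKM at day 0 and 7.33 RPKM at day 2 (169 and 687 reads), and the ligand gene Kitl, which encodes the KIT ligand, with 0.837 RPKM at day 0 and 3.41 RPKM at day 2 (89 and 335 reads). Among the down-regulated were the ligand Pdgfc, with 47.1 RPKM at day 0 and 6.65 RPKM at day 2 (3230 and 421 reads), and the ERK phosphatase Dusp6, with 3.92 RPKM at day 0 and 0.714 RPKM at day 2 (214 and 36 reads). Of 12 tendon, cartilage and bone genes 4 were up-regulated and 4 down-regulated (33.3% each). The down-regulated members were Tnmd, the tendon gene tenomodulin, with 29.6 RPKM at day 0 and 6.40 RPKM at day 2 (764 and 153 reads), and 3 others. Spp1, osteopontin, had 10.3 RPKM at day 0 and 0.301 RPKM at day 2 (297 and 8 reads), Fmod, fibromodulin of tendon, had 6.51 RPKM at day 0 and 0.349 RPKM at day 2 (363 and 18 reads), and Col2a1, the cartilage collagen, had 6.14 RPKM at day 0 and 0.767 RPKM at day 2 (615 and 71 reads). Comp, a cartilage oligomeric matrix protein, had 0.0845 RPKM at day 0 and 2.49 RPKM at day 2 (4 and 109 reads), while in Ad-GFP cells it had 14 reads at both days. The other up-regulated members were Sox9, Prg4, the joint lubricant lubricin, with 0.323 RPKM at day 0 and 1.52 RPKM at day 2 (27 and 117 reads), and Mgp, an inhibitor of calcification, with 2.14 RPKM at day 0 and 9.91 RPKM at day 2 (25 and 107 reads).

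Interferon-stimulated genes had the largest downward median among lists with at least 20 expressed genes. Of 27 expressed members 19 were down-regulated and none was up-regulated, with log2 ratios from -4.93 to 1.22, a median of -2.26 and a length-adjusted median of -2.14. In Ad-GFP cells the median was -3.23 and 23 were down-regulated. Ifih1, a sensor of double-stranded RNA, had 3.75 RPKM at day 0 and 0.301 RPKM at day 2 (404 and 30 reads), Ifi44 had 3.93 RPKM at day 0 and 0.229 RPKM at day 2 (223 and 12 reads), Oasl2, of the oligoadenylate synthetase family, had 7.88 RPKM at day 0 and 0.937 RPKM at day 2 (482 and 53 reads), and Gbp2, a guanylate-binding GTPase, had 3.19 RPKM at day 0 and 0.339 RPKM at day 2 (153 and 15 reads). The members with most reads were Stat2, a transcription factor of the pathway, with 25.7 RPKM at day 0 and 15.3 RPKM at day 2 (2201 and 1215 reads), and Bst2, the restriction factor tetherin, with 120.4 RPKM at day 0 and 74.6 RPKM at day 2 (1799 and 1030 reads). Both of these were lower but within the cutoff, and Bst2 passed it, at -1.48, when length-adjusted.

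Promoter sequences of 3 down-regulated members are shown because the interferon response element, which interferon-activated factors bind, is the best-known control element of this class, and these 3 had the most reads at day 0 among the members that hold its core. They are the RefSeq promoters of build GRCm38.p6, from 250 bases before to 50 bases after the transcript start, printed 5′ to 3′ along the gene, and capitals mark matches to GAAANNGAA on either strand. Ddx58 encodes the RNA sensor RIG-I and had 15.3 RPKM at day 0 and 2.996 RPKM at day 2 (1473 and 267 reads) (minus strand, chr4:40239776-40240075). Isg15 encodes a ubiquitin-like protein and had 78.6 RPKM at day 0 and 17.6 RPKM at day 2 (1160 and 240 reads) (minus strand, chr4:156200769-156201068). Ifit1 encodes a protein that binds foreign RNA and had 11.5 RPKM at day 0 and 1.58 RPKM at day 2 (594 and 75 reads) (plus strand, chr19:34640639-34640938).
Ddx58: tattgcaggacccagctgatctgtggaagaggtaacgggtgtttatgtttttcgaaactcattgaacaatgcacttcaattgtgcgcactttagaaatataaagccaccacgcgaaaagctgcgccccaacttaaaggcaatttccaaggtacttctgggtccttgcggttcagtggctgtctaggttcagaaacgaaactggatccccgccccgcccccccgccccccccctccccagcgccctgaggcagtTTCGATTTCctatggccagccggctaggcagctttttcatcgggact
Isg15: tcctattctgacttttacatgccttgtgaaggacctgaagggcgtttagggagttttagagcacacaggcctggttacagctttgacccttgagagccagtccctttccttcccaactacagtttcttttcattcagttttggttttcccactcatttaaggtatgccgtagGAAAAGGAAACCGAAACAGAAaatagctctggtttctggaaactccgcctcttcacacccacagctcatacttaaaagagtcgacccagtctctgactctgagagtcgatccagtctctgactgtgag
Ifit1: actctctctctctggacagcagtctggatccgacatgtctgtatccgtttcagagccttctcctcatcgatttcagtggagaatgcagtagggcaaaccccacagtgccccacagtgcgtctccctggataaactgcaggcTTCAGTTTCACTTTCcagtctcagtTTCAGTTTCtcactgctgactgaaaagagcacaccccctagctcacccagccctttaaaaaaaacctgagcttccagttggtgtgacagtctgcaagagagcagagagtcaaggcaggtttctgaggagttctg
The core was found in 11 of the 25 promoters of expressed interferon genes (44.0%). The share was 8.56% of all 32851 promoters of the same length and 6.68% of those of expressed symbols. The 25 interferon gene promoters belong to 21 of the 27 genes. Among the promoters of down-regulated symbols as a whole it was in 8.15%, and among those of up-regulated symbols in 6.00%. A match is a description of letters and not a measured binding site.

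Of 15 expressed chemokine, cytokine and inflammatory genes 8 were down-regulated and 3 up-regulated, with a median of -1.68. The Ad-GFP median was -3.23, with 12 down-regulated and 1 up-regulated. Ptgs2, the inducible cyclooxygenase that indomethacin inhibits, had 12.5 RPKM at day 0 and 0.870 RPKM at day 2 (1014 and 65 reads). Ccl2, which attracts monocytes, had 13.7 RPKM at day 0 and 0.757 RPKM at day 2 (215 and 11 reads). Csf1, a macrophage growth factor gene, had 90.8 RPKM at day 0 and 28.3 RPKM at day 2 (7398 and 2133 reads). Opposite to these were C3, complement component 3, with 0.170 RPKM at day 0 and 3.63 RPKM at day 2 (17 and 336 reads), and Nfkbia, encoding the NF-κB inhibitor IκBα and a known glucocorticoid target, with 18.6 RPKM at day 0 and 119 RPKM at day 2 (572 and 3391 reads). Ptges, a prostaglandin E synthase, was the third up-regulated member, with 0.731 RPKM at day 0 and 2.205 RPKM at day 2 (52 and 145 reads). Nfkbia had a ratio of 2.68, against 0.67 in Ad-GFP cells. Of 16 AP-1 and immediate early genes 6 were down-regulated and none up-regulated. Ier3, an early response gene, had 19.4 RPKM at day 0 and 4.68 RPKM at day 2 (413 and 92 reads), Maff, a small MAF factor, had 13.1 RPKM at day 0 and 4.13 RPKM at day 2 (460 and 134 reads), and Fosl1, an AP-1 subunit, had 11.8 RPKM at day 0 and 4.23 RPKM at day 2 (391 and 130 reads). The exons of Fosl1 overlap those of other genes over 68.1% of their length in the annotation, so that part of its reads may belong to a neighbour. The AP-1 subunit genes with most reads, Jund and Fosl2, were within the cutoff, with 93.5 RPKM at day 0 and 81.3 RPKM at day 2 (5253 and 4217 reads) and 35.6 RPKM at day 0 and 42.2 RPKM at day 2 (4078 and 4460 reads).

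Of 29 expressed DNA replication genes none passed the cutoff in either direction, with a median of 0.05 and -0.08 when length-adjusted. After that adjustment 2 were up-regulated, among them the E2F factor gene E2f2 at 1.39. Mcm2, of the replicative helicase, had 81.8 RPKM at day 0 and 66.3 RPKM at day 2 (5382 and 4029 reads), and the ribonucleotide reductase subunits Rrm1 and Rrm2 had 49.9 RPKM at day 0 and 25.7 RPKM at day 2 (3895 and 1849 reads) and 46.5 RPKM at day 0 and 22.4 RPKM at day 2 (1979 and 881 reads). Of 26 mitosis genes 1 passed it, Kif23, a kinesin of cytokinesis, with 16.2 RPKM at day 0 and 6.19 RPKM at day 2 (1083 and 382 reads), and the median was -0.49. Length-adjusted, Kif23 was at -1.21 and none passed. The proliferation marker Mki67 had 40.2 RPKM at day 0 and 18.01 RPKM at day 2 (7896 and 3272 reads), a log2 ratio of -1.16 that was -0.46 when length-adjusted.

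Promoters of the mitosis genes often held the elements known for periodic transcription. The cell cycle homology region, TTTGAA, was in 16 of 22 mitosis promoters (72.7%), against 17.9% of all promoters and 11.6% of those of expressed symbols. CCAAT was in 18 of 22 (81.8%), against 37.4% of all and 38.2% of those of expressed symbols. Clock gene promoters held CCAAT in 84.2%. CCAAT was also in 14 of 20 promoters of the sterol list (70.0%), whereas the sterol element TCACNCCAC was in none of these 20 and in 1.24% of all. TGACG, a part of the cAMP response element TGACGTCA, was in 9 of 15 promoters of cAMP-responsive genes (60.0%). The share was 20.8% of all promoters and 32.0% of those of expressed symbols. These 15 promoters belong to 10 genes, and promoters of AP-1 and immediate early genes held TGACG in 52.9%. TGACGTCA itself was in none of the 15, against 1.79% of all and 3.12% of those of expressed symbols. All were searched on both strands in windows of 300 bases, and a TGACG match can be part of a TGACGTCA match.

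Of 20 expressed CDK inhibitors, D-type cyclins and p53 targets, 3 were up-regulated and 3 down-regulated (15% each, against 9.14% and 10.2% of all expressed symbols), or 1 and 2 when length-adjusted. The 3 up-regulated genes are all CDK inhibitors. Beside Cdkn1c, given above, they were Cdkn2a, the locus of p16 and p19ARF, with 280.1 RPKM at day 0 and 1130.1 RPKM at day 2 (5077 and 18931 reads), and its neighbour Cdkn2b, encoding p15, with 18.1 RPKM at day 0 and 57.8 RPKM at day 2 (492 and 1451 reads). Neither Cdkn2a nor Cdkn2b was up-regulated in Ad-GFP cells, where the ratios were -0.46 and -0.51. Both transcripts are short, and the length-adjusted ratios of 1.29 and 1.19 were under the cutoff, which is 1.32 on the log2 scale. Among the D-type cyclins, which start the cell cycle with CDK4 and CDK6, Ccnd1 had 2.92 RPKM at day 0 and 0.847 RPKM at day 2 (216 and 58 reads) and Ccnd2 had 74.6 RPKM at day 0 and 28.7 RPKM at day 2 (8397 and 2988 reads). The length-adjusted ratio of Ccnd2 was -0.86, within the cutoff. The other down-regulated member was Ccng1, a p53 target, with 44.6 RPKM at day 0 and 15.3 RPKM at day 2 (3037 and 960 reads).

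The median of the respiratory chain genes depended on the length adjustment. Of 24 expressed respiratory chain genes 1 was up-regulated and none down-regulated, with a median of 0.62 that became 0.04 when length-adjusted. The up-regulated gene was Cox4i1, a subunit of cytochrome oxidase with a transcript of 679 bases, with 154 RPKM at day 0 and 419 RPKM at day 2 (2042 and 5127 reads), and its ratio of 1.44 became 0.62. Atp5b, the catalytic subunit of ATP synthase, had 458 RPKM at day 0 and 452 RPKM at day 2 (16804 and 15328 reads). In Ad-GFP cells, which had no such decline of the ratio with length, the median was 0.85. Whether the adjustment in Ad-Cre cells also took out a change of these genes was not tested.

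Of 25 expressed genes of fatty acid oxidation and the TCA cycle 3 were up-regulated and none down-regulated. The 12% up-regulated stood beside 9.14% of all expressed symbols. The list median was 0.52, against 1.18 in Ad-GFP cells. Pcx, pyruvate carboxylase, which supplies oxaloacetate for lipogenesis, had 10.7 RPKM at day 0 and 81.5 RPKM at day 2 (865 and 6094 reads), and reached less than in Ad-GFP cells, at 12.2 and 346 RPKM. Acaa2, the last enzyme of mitochondrial β-oxidation, had 19.2 RPKM at day 0 and 92.6 RPKM at day 2 (561 and 2505 reads), and Etfb, an electron carrier of that pathway, had 25.2 RPKM at day 0 and 101 RPKM at day 2 (401 and 1483 reads), a ratio of 2.00 that became 1.23, within the cutoff, when length-adjusted. Cs, citrate synthase, had 104 RPKM at day 0 and 75.3 RPKM at day 2 (5741 and 3839 reads), and its ratio of -0.47 stood against 1.24 in Ad-GFP cells.

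Genes of the ATF4 response and serine synthesis had a median of -0.12, with 2 of 20 down-regulated and none up-regulated (4 and 1 when length-adjusted). The 10% down-regulated stood beside 10.2% of all expressed symbols. Ad-GFP cells had a median of 1.34, with 10 up-regulated. Slc7a5, a transporter of large neutral amino acids, had 130.0 RPKM at day 0 and 54.8 RPKM at day 2 (8911 and 3473 reads) in Ad-Cre and 83.7 and 217 RPKM in Ad-GFP cells. Slc7a11, the cystine transporter, had 1.22 RPKM at day 0 and 0.258 RPKM at day 2 (219 and 43 reads), and Aldh1l2, a mitochondrial folate enzyme, had 26.4 RPKM at day 0 and 5.23 RPKM at day 2 (3110 and 569 reads). Of 17 NRF2 and antioxidant genes 1 was up-regulated and 1 down-regulated, the former Mgst1, a microsomal glutathione transferase, with 0.163 RPKM at day 0 and 2.76 RPKM at day 2 (3 and 47 reads), and the latter Slc7a11. These shares of 5.88% each stood under the 9.14% and 10.2% of all expressed symbols, and 2 and 2 genes passed when length-adjusted. Txnrd1, thioredoxin reductase, had 54.8 RPKM at day 0 and 29.003 RPKM at day 2 (3749 and 1833 reads), and Prdx1, a peroxiredoxin, had 71.2 RPKM at day 0 and 97.8 RPKM at day 2 (1969 and 2499 reads).

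Of 16 expressed circadian clock genes 1, Per1, was up-regulated and 2 were down-regulated. These were Bhlhe40, a repressor of the clock that also responds to stress, with 28.3 RPKM at day 0 and 7.29 RPKM at day 2 (1717 and 409 reads), and Nr1d2, encoding REV-ERBβ, with 4.57 RPKM at day 0 and 1.52 RPKM at day 2 (414 and 127 reads). Tef, a PAR leucine zipper factor, had 21.4 RPKM at day 0 and 21.6 RPKM at day 2 (1770 and 1650 reads). Length-adjusted, Nr1d2 was at -1.24, within the cutoff. The shares of 6.25% up-regulated and 12.5% down-regulated stood beside 9.14% and 10.2% of all expressed symbols. The list median was -0.06, against 0.89 in Ad-GFP cells. Of 13 expressed KMT2 and SETD1 enzymes and subunits of their complexes none passed the cutoff. Beside Kmt2d and Kmt2c these included Kdm6a, encoding the demethylase UTX, with 6.64 RPKM at day 0 and 3.58 RPKM at day 2 (682 and 340 reads), Ncoa6, with 17.3 RPKM at day 0 and 8.92 RPKM at day 2 (2323 and 1105 reads), and Paxip1, encoding PTIP, with 16.3 RPKM at day 0 and 12.2 RPKM at day 2 (1606 and 1109 reads). Pagr1a, encoding the small subunit PA1, had 23.4 RPKM at day 0 and 56.2 RPKM at day 2 (646 and 1432 reads). Its ratio is uncertain, since 55.5% of its 50-base windows also occur in protein-coding transcripts of other annotated genes.

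**Figure D4:**
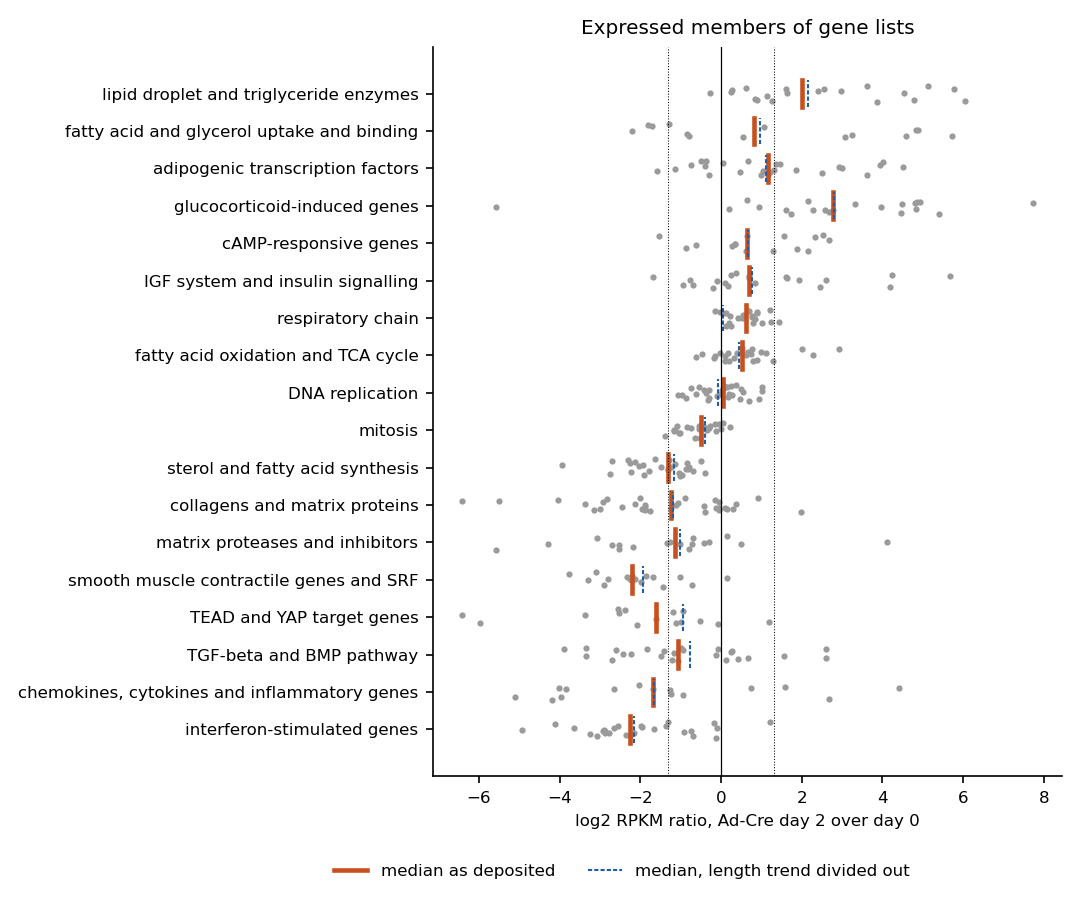
Log2 ratio of RPKM at day 2 to day 0 in Ad-Cre cells (horizontal axis) for the expressed members of each gene list (rows); each grey point is a gene, dotted lines mark 2.5-fold, and the bars give the median as deposited and with the length trend divided out. The medians run from -2.26 for interferon-stimulated genes to 2.76 for glucocorticoid-induced genes.

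Among symbols with at least 100 reads, the 15 with the highest ratios by the lower bound of the interval held Fabp4, G0s2, Mgll, Cdkn1c, Igfbp4 and Lcn2, given above, and 9 others. Map7d2, a microtubule-associated gene, had 0.146 RPKM at day 0 and 13.9 RPKM at day 2 (11 and 969 reads), a log2 ratio of 6.57 (interval 5.73 to 7.58). Agtr2, the type 2 angiotensin receptor (chrX:21061670-21066290), had 0.429 RPKM at day 0 and 37.01 RPKM at day 2 (24 and 1914 reads), 86.3-fold higher, with a log2 ratio of 6.43 (interval 5.85 to 7.08) against 4.84 in Ad-GFP cells. Chst8, a sulfotransferase of glycoprotein hormones, had 0.128 RPKM at day 0 and 7.70 RPKM at day 2 (6 and 333 reads). Plasma proteins of the acute phase were among the 15. Hp, haptoglobin, had 1.07 RPKM at day 0 and 51.6 RPKM at day 2 (28 and 1251 reads), Lrg1, a leucine-rich glycoprotein, had 0.0379 RPKM at day 0 and 5.66 RPKM at day 2 (1 and 138 reads), and Serpina3n, a protease inhibitor, had 0.221 RPKM at day 0 and 12.05 RPKM at day 2 (9 and 453 reads). Each of these was up-regulated in Ad-GFP cells too, at ratios of 6.98, 6.23 and 7.04. Ren1 and Ren2, the near-identical renin genes, both had 134 reads at day 2 and none at day 0, at least 48.3-fold higher against a floor of 3 reads, and the files cannot tell which of them the reads came from. Ramp2, a partner of the calcitonin receptor-like receptor, had 0.647 RPKM at day 0 and 32.5 RPKM at day 2 (11 and 511 reads). Of its windows 73.8% also occur in protein-coding transcripts of other annotated genes, and 33.4% of its exons overlap other genes.

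The 15 with the lowest ratios included Ccn2, Thbs1, Ankrd1 and Spp1, given above, and the 10 described next. C1qtnf3, a secreted relative of adiponectin, had 37.1 RPKM at day 0 and 0.850 RPKM at day 2 (1841 and 39 reads), a log2 ratio of -5.45 (interval -5.94 to -4.99). Cspg4, the proteoglycan NG2 of pericytes, had 15.3 RPKM at day 0 and 0.751 RPKM at day 2 (2410 and 109 reads), and Megf10, an engulfment receptor, had 3.70 RPKM at day 0 and 0.0738 RPKM at day 2 (543 and 10 reads). L1cam, a neural adhesion molecule, had 1.06 RPKM at day 0 and 0.0105 RPKM at day 2 (109 and 1 reads), and Foxs1, a forkhead factor of pericytes, had 20.4 RPKM at day 0 and 0.719 RPKM at day 2 (522 and 17 reads). Each of these was lower in Ad-GFP cells as well, at -3.94 for C1qtnf3, -3.57 for Cspg4, -4.87 for Megf10, -2.74 for L1cam and -3.55 for Foxs1 on the log2 scale. Gas2, a cytoskeletal substrate of caspases, had 38.5 RPKM at day 0 and 1.45 RPKM at day 2 (1607 and 56 reads), Klhdc8a, a kelch domain gene, had 4.86 RPKM at day 0 and 0.117 RPKM at day 2 (405 and 9 reads), and Map3k7cl, a kinase-like gene, had 16.5 RPKM at day 0 and 0.336 RPKM at day 2 (533 and 10 reads). The remaining pair are uncertain in their assignment of reads. The exons of Htr1b, a serotonin receptor with 588 and 10 reads at day 0 and day 2, overlap other genes over 66.9% of their length. For Trim16, a tripartite motif gene with 222 and 5 reads, 62.4% of the windows also occur in protein-coding transcripts of other annotated genes.

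The cells without MLL4 shared part of these changes with the Ad-GFP cells. In Ad-GFP cells 865 (7.58%) of the symbols expressed in Ad-Cre cells were up-regulated and 1386 (12.2%) down-regulated. Of the 1042 symbols up-regulated without MLL4, 305 (29.3%) were up-regulated in Ad-GFP cells, which is 35.3% of those up-regulated there. A further 67 were down-regulated there and 670 were within the cutoff. Of the 1166 down-regulated symbols, 635 (54.5%) were down-regulated in Ad-GFP cells, which is 45.8% of those down-regulated there, 16 were up-regulated and 515 within the cutoff. The median log2 ratio in Ad-GFP cells was 0.69 for the symbols up-regulated in Ad-Cre cells and -1.56 for the down-regulated ones. Across 11023 symbols with at least 20 reads the ratios of the 2 cell populations had a Pearson's r of 0.600. The points share neither library, but the genes are not independent.

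The difference between the log2 ratios of Ad-Cre and Ad-GFP cells was past 2.5-fold in 1373 symbols with a higher ratio in Ad-Cre cells (11.7%) and in 1275 with a lower one (10.9%), of 11708 symbols with reads in all 4 libraries. With both length trends divided out these were 1193 and 1040. With 1 library for each condition the difference could not be tested, and its interval covers counting error only. A lower ratio in Ad-Cre cells came about in different ways. For Agt and Col15a1, a basement membrane collagen gene, both populations had a higher level at day 2, and the ratios were 3.91 against 7.54 and 0.92 against 4.69. Irs2, the insulin receptor substrate, had 19.7 RPKM at day 0 and 25.6 RPKM at day 2 (1542 and 1855 reads) in Ad-Cre cells and 13.1 and 150.4 RPKM in Ad-GFP cells, and Cth, which makes cysteine, had 6.43 RPKM at day 0 and 8.22 RPKM at day 2 (226 and 267 reads) against 3.55 and 43.9 RPKM. For Irs2 and Cth the level without MLL4 hardly moved.

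Other genes moved in opposite directions. Jag1, a Notch ligand (chr2:136907192-136942380), had 62.4 RPKM at day 0 and 8.91 RPKM at day 2 (6689 and 883 reads) in Ad-Cre cells and 6.43 and 18.8 RPKM in Ad-GFP cells, a difference of -4.36 (interval -4.52 to -4.20). Heyl, a target of Notch, had 3.43 RPKM at day 0 and 0.330 RPKM at day 2 (303 and 27 reads) against 0.218 and 0.547 RPKM. Adamts12, a protease of the matrix, had 13.9 RPKM at day 0 and 5.47 RPKM at day 2 (1688 and 615 reads) against 6.09 and 34.03 RPKM, and Spry4, a feedback inhibitor of FGF signalling, had 5.95 RPKM at day 0 and 2.25 RPKM at day 2 (533 and 186 reads) against 2.93 and 10.4 RPKM. Length-adjusted, the Ad-Cre ratios of Adamts12 and Spry4 were -0.77 and -1.07, within the cutoff. At day 0 Jag1 and Heyl were already higher without MLL4. Syde2, a GTPase-activating gene, and Adarb1, an RNA-editing enzyme, had log2 ratios of -1.15 and -0.89 in Ad-Cre cells, within the cutoff, and of 2.12 and 2.21 in Ad-GFP cells.

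The genes with the highest difference in favour of Ad-Cre cells included Mchr1, the receptor for melanin-concentrating hormone, with 0.140 RPKM at day 0 and 7.96 RPKM at day 2 (6 and 314 reads), against 0.292 and 0.159 RPKM in Ad-GFP cells, a difference of 6.70 (interval 4.95 to 8.46). Cd34 was at 0.352 to 2.98 RPKM in Ad-Cre and at 11.1 and 1.46 RPKM in Ad-GFP cells, a difference of 6.01 (interval 5.23 to 6.79). Htra1, a secreted serine protease, had 5.88 RPKM at day 0 and 34.2 RPKM at day 2 (234 and 1259 reads) against 38.3 and 5.995 RPKM, and Tmem119, a gene of osteoblasts and microglia, had 3.03 RPKM at day 0 and 22.4 RPKM at day 2 (123 and 838 reads) against 28.7 and 4.10 RPKM. Sox4 was at 87.9 to 480.0 RPKM against 101 and 28.98 RPKM. At day 0 all 5 of these genes were lower without MLL4 than with it, and at day 2 all 5 were higher. The day 0 margin was small for Sox4, and for Mchr1 it rested on 6 against 11 reads. Ccn3, a matricellular gene, was lower at day 2 in both populations but by less in Ad-Cre cells, with ratios of -1.56 against -6.40. Gpr153, an orphan receptor gene, was at -0.15 (interval -0.31 to 0.01) in Ad-Cre cells, where it turned to 0.15 when length-adjusted, and at -4.49 in Ad-GFP cells. The other 3 were non-coding. Rmrp and Rpph1, the RNA components of RNase MRP and RNase P, are short transcripts of 275 and 325 bases with ratios of 3.52 and 3.90, which became 2.60 and 2.97 when length-adjusted, and C430049B03Rik had 1.25 RPKM at day 0 and 5.21 RPKM at day 2 (73 and 281 reads) against 5.34 and 1.003 RPKM.

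**Figure D5:**
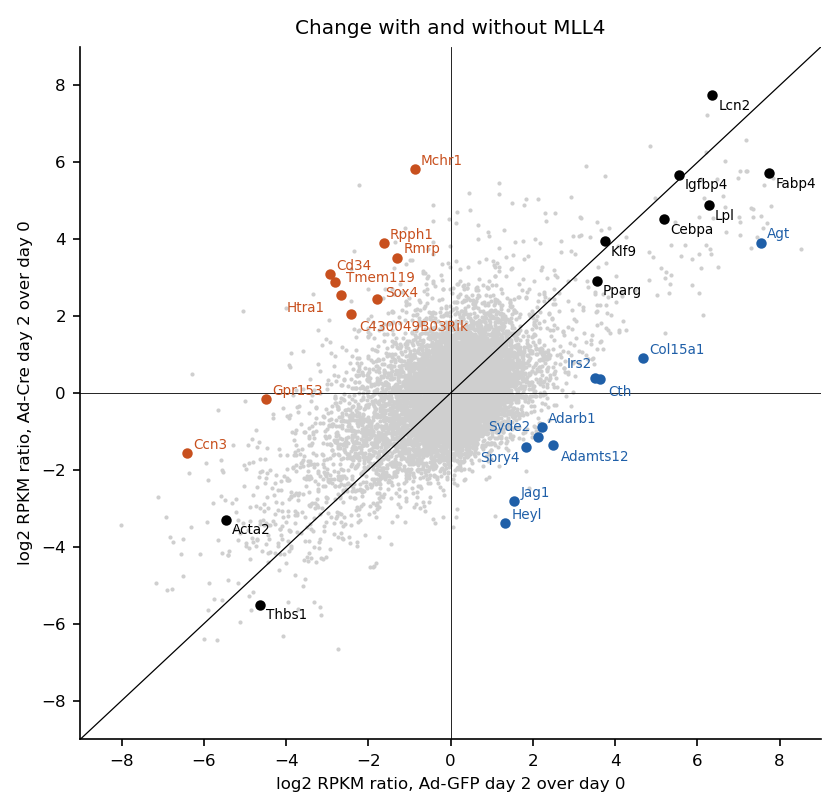
Log2 ratio of RPKM at day 2 to day 0 in Ad-GFP cells (horizontal axis) and Ad-Cre cells (vertical axis) for each expressed symbol, with the 10 genes of the highest and the 10 of the lowest difference and some leading genes named. Most symbols lie near the diagonal, while Cd34, Tmem119 and Htra1 stand at the upper left and Jag1 and Heyl at the lower right.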

How the data were processed

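RNA-Seq of 4 libraries, 1 for each combination of virus and day, was analysed. The authors aligned the reads to NCBI37/mm9 and deposited the read count of each RefSeq transcript over its exons, as whole numbers, and the RPKM. Every deposited RPKM equalled the count divided by a whole exon length and by 1 total per library, taken as its mapped reads. The treatment of strand and of reads with several matches is not given in the sources used here. Names of other tools in the submitters' processing notes, SICER 1.1 and bedtools 2.16, carry no role.

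Symbols came from a RefSeq table of GRCm38.p6 (97.8% of 29082 transcripts matched) and were used for names. Coordinates came from GENCODE vM1 on NCBI37/mm9 (96.9% of expressed symbols). The cutoff of 2.5-fold and the threshold of 1 RPKM follow the study's methods. With 1 library for each condition no test was run. Exact binomial 95% intervals of the read ratio (Clopper-Pearson, scipy 1.17.1) cover counting error only, as do the normal intervals of differences between cell populations. The length trend was interpolated between the medians of 20 bins and held constant beyond the first and the last. Scaling factors were computed with edgeR 4.0.16 and DESeq2 1.42.0 in R 4.3.3 from the deposited counts, and no model was fitted. The rest was done in Python 3.11.15 (pandas 2.3.3, numpy 2.4.6, matplotlib 3.10.9), and the counting of calls and the length adjustment were tested on simulated data.

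Named genes were, among expressed symbols with at least 100 reads in the higher Ad-Cre library, the 15 highest and 15 lowest ratios and the 10 largest differences from Ad-GFP cells in each direction, all ranked by the interval bound nearest to 0, in each list the 4 members with the largest ratios and the 2 with most reads, and Kmt2d, Kmt2c, Pparg, Cebpa, Cebpb and Fabp4. Marker genes, Ucp1, Cidea, members needed to complete counts of 5 or fewer and the genes of the promoters shown were named after their values were seen. Some genes that this rule names are not reported here. The comparison, its members and the 31 gene lists were chosen with earlier results of these data known. Alternatives covered scaling, the fold cutoff, the RPKM threshold, an added RPKM, read minimums, the transcript of a symbol, thinning, the length trend and the interval. The ChIP-Seq and myogenesis data were not analysed here.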

Additional observations from a re-analysis of the deposited data

Results flagged for a closer look

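For 10 of the named genes the ratio of day 2 to day 0 passed 2.5-fold in opposite directions in Ad-Cre and Ad-GFP cells, with both intervals clear of 0. All 10 had been named for their large difference between the cell populations, so the flag follows in part from that choice. With 1 library for each condition, the difference between the cell populations was not tested. Over all 11406 expressed symbols 83 passed 2.5-fold in opposite directions, counted without the condition on the intervals. Of the 10, 6 were higher at day 2 in Ad-Cre and lower in Ad-GFP cells. The difference of the log2 ratios was 6.01 for Cd34, 5.69 for Tmem119, 5.53 for Rpph1, 5.22 for Htra1, 4.47 for C430049B03Rik and 4.25 for Sox4. With both length trends divided out it was 6.02 for Cd34, 5.50 for Tmem119, 5.02 for Htra1 and 4.40 for Sox4. The other 4 were lower at day 2 in Ad-Cre and higher in Ad-GFP cells, by -4.70 for Heyl, -4.36 for Jag1, -3.83 for Adamts12 and -3.24 for Spry4. Length-adjusted, these differences were -4.37 for Heyl, -3.87 for Jag1, -3.27 for Adamts12 and -2.89 for Spry4. The length-adjusted ratios of Adamts12 and Spry4 in Ad-Cre cells, -0.77 and -1.07, were within the cutoff, so that these 2 no longer met the description.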

How the results depend on the processing

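No paired analysis was possible because each condition has 1 library and the labels carry no shared replicate numbers. The counts of up-regulated and down-regulated symbols, 1042 and 1166, became 1712 and 1859 at a 2-fold cutoff, 448 and 516 at 4-fold, 2842 and 2427 with no RPKM threshold and at least 1 read, and 628 and 684 with 1 RPKM added to each value. With the whole interval past the cutoff 607 symbols were up-regulated, and, in an alternative chosen after seeing the data, 490 and 656 were up- and down-regulated with the length trend divided out as well. The median log2 ratio was 0.17 under scaling by the sum of counts. Under the other alternatives the counts were within 1.5 times the main values, among them TMM (1054 and 1159), DESeq2 size factors (1051 and 1160), at least 100 reads (740 and 998) and protein-coding transcripts alone (897 and 1084, chosen after seeing the data). The difference between the cell populations gave 1558 and 1051 symbols after TMM scaling, against 1373 and 1275. Of 135 named genes past the cutoff 123 stayed past it with the length trend divided out and 122 with 1 RPKM added, and none of the 135 changed sign in either. Of all 191 named genes with a finite ratio 6 changed sign with the length trend divided out: Kmt2d, Gpr153, Paxip1, Men1, Prdx1 and Slc29a1, each within the cutoff. Of 31 gene list medians 6 changed sign with the length trend divided out, those of DNA replication, the KMT2 complexes, NRF2, PDGF and FGF, Wnt and brown fat identity, all of which were near 0. The shallow side of a ratio limits it: 3 reads on 1 kb were 0.154 RPKM at day 0 and 0.166 RPKM at day 2.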

Other observations

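The gene lists given next were chosen after values were seen, and their counts are descriptions, to be read beside the 9.14% higher and 10.2% lower of all expressed symbols. Of 16 expressed Notch pathway genes 1 was more than 2.5-fold higher at day 2 in Ad-Cre cells and 5 were more than 2.5-fold lower, with a median log2 ratio of -0.95, against 0.31 in Ad-GFP cells. Length-adjusted, 3 were lower, since Notch2 and Maml2 came within the cutoff, at -0.71 and -0.87. Besides Jag1 and Heyl, the feedback gene Nrarp went from 2.29 to 0.689 RPKM. The receptor Notch2 had 22.8 RPKM at day 0 and 8.63 RPKM at day 2 (4674 and 1634 reads). Notch1 was lower but within the cutoff, with 42.6 RPKM at day 0 and 17.4 RPKM at day 2 (7881 and 2980 reads). In Ad-GFP cells the log2 ratios of Notch1 and Nrarp were 1.35 and 0.50. Dtx1, an E3 ligase gene of the pathway, was the higher member, from 0.110 to 1.51 RPKM.

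Of 22 expressed imprinted genes 4 were higher past 2.5-fold and 2 lower, or 6 and 2 when length-adjusted. Plagl1, a zinc finger factor gene, had 12.8 RPKM at day 0 and 90.9 RPKM at day 2 (1314 and 8621 reads), a log2 ratio of 2.83 against 0.16 in Ad-GFP cells. It was higher together with Cdkn1c and Igf2, and the non-coding gene Meg3 was at 1.18, within the cutoff but at 1.88 when length-adjusted, against -2.63 in Ad-GFP cells. Slc38a4, an amino acid transporter, and the non-coding gene Rian were lower, at -2.68 and -1.73. Of 24 expressed Hox genes 1 was higher, Hoxa5, with 5.87 RPKM at day 0 and 24.6 RPKM at day 2 (215 and 834 reads), and 4 were lower, among them Hoxb9, with 20.96 RPKM at day 0 and 4.23 RPKM at day 2 (1104 and 206 reads), that is, 4.17% and 16.7% of the Hox genes. In Ad-GFP cells Hoxa5 had a log2 ratio of -0.39 and Hoxb9 of -2.95.

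Of 14 expressed genes of MHC class I and complement 3 were higher past 2.5-fold and none lower in Ad-Cre cells, whereas in Ad-GFP cells 1 was higher and 7 lower. Length-adjusted, 2 were higher and 2 lower in Ad-Cre cells. H2-K1 and H2-D1, the classical MHC class I genes, which are similar in sequence, had log2 ratios of 0.37 and 0.46 in Ad-Cre cells. Of 6 expressed genes of the renin-angiotensin system 3 were higher, Agt, Agtr2 and Ren1, and none was lower. Timp4, Lbp and Des were the symbols other than Ren1 and Ren2 with most reads at day 2 among those without a read at day 0, with 93, 62 and 49 reads.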
